A study of Mus musculus with 25 samples.

Results

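A set of 9 genes of inhibitory neurotransmission was followed here across sorted mouse brain cells. They were taken by name from the 36528 Entrez gene IDs in the deposited tables, and each of the 9 was matched to a mouse symbol. They are Gad1 and Gad2, which encode the enzymes that make GABA, Slc32a1, which encodes the transporter that loads GABA into synaptic vesicles, and Slc6a11, which encodes the GABA transporter GAT3. The others are the interneuron transcription factor gene Lhx6, the subtype markers Sst and Pvalb, the neuregulin receptor gene Erbb4 and Reln, the gene of the secreted protein reelin.

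Cells were sorted from brains of mice aged 6 months. The transgenic mice carried hMAPT-P301S, a human tau gene with the P301S mutation (P301S), and the controls (non-Tg) were littermates without the transgene. There were 6 libraries of P301S neurons, 8 of non-Tg neurons, 5 of P301S astrocytes and 6 of non-Tg astrocytes, with neurons sorted by NeuN and astrocytes by Gfap. The sources used here do not give the transgene's promoter, the brain region or the number of animals behind a library. P-values therefore measure the spread between these libraries, which may be technical. Myeloid cells of the same experiment were not analysed here.

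GABA is the main inhibitory transmitter of the forebrain. Interneurons make it from glutamate with the enzymes GAD67 (Gad1) and GAD65 (Gad2), load it into vesicles and release it, and astrocytes take up part of it again through GAT3. Lhx6 specifies interneurons born in the medial ganglionic eminence, most of which go on to express somatostatin (Sst) or parvalbumin (Pvalb). Projection neurons of the striatum and Purkinje cells also use GABA, so Gad1, Gad2 and Slc32a1 mark GABAergic neurons in general.

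Total counts per library ran from 1.25e+06 to 4.45e+06, and 13894 to 23389 genes had a count. P301S astrocyte libraries 3 and 4 stood at the low end of genes detected, and non-Tg neuron libraries 5 and 8 have sample identifiers from another number range than the other libraries. Levels are given as CPM, each library's counts as a share of its total, per 1e6, scaled by TMM factors (a correction for library composition), and a floor of 3 counts was worth 0.674 to 2.41 CPM in 1 library. Floors cover counting error only. The genes of the sort markers followed the labels. Rbfox3, the gene of NeuN, averaged 68.8 ± 13.5 CPM in P301S neurons and 4.10 ± 4.22 CPM in P301S astrocytes (SD, n = 6 and 5). In the non-Tg cells Rbfox3 averaged 72.7 ± 22.6 against 5.03 ± 3.99 CPM (n = 8 and 6). Gfap averaged 7.99 ± 3.79 CPM in P301S neurons and 937 ± 149 CPM in P301S astrocytes, and 2.45 ± 2.87 against 198 ± 104 CPM in the non-Tg cells. Syt1, a synaptic vesicle gene, averaged 361 ± 50.7 CPM in P301S neurons and 14.6 ± 10.04 CPM in P301S astrocytes, and 440.0 ± 50.4 against 29.4 ± 9.24 CPM in the non-Tg cells. Of 14 general neuron markers, 13 were higher in neurons by the fit in P301S and 14 in non-Tg mice, beside 46.2% and 48.3% of all genes. Eno2 went the other way in P301S, at 46.2 ± 17.8 CPM in neurons and 88.3 ± 86.8 CPM in astrocytes. The CPM of 14 general neuron markers summed to 718 to 1393 in P301S and 585 to 859 in non-Tg astrocytes, and most of that was Map2, with a mean of 618 CPM in P301S and 434 CPM in non-Tg astrocytes. In astrocyte libraries the mitochondrial share of counts was 3.61% to 11.4% in P301S and 2.31% to 5.66% in non-Tg, the TMM factor of P301S astrocyte library 4 was 0.541, and 8 oligodendrocyte markers summed to 397 to 1249 CPM in P301S and 196 to 522 CPM in non-Tg.

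On GRCm38.p6, 4 of the 9 genes lie on chromosome 2: Gad1 (ID 14415) from 70561303 to 70602014, Gad2 (ID 14417) from 22621015 to 22693877, Slc32a1 (ID 22348) from 158607260 to 158615747 and Lhx6 (ID 16874) from 36081950 to 36105992. Slc6a11 (ID 243616) lies on chromosome 6 from 114131241 to 114249886, Sst (ID 20604) on chromosome 16 from 23889573 to 23891342, and Pvalb (ID 19293) on chromosome 15 from 78191112 to 78206400. Erbb4 (ID 13869) lies on chromosome 1 from 68031884 to 69108576, and Reln (ID 19699) on chromosome 5 from 21884454 to 22344705. All 9 are annotated as protein-coding.

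The promoters of 4 members are shown as examples and not as the firmest contrasts: Sst and Lhx6 were higher in neurons, Slc6a11 was higher in astrocytes, and Reln varied together with Gad1. Each is a stretch upstream of a RefSeq transcript start, read 5′ to 3′ on the gene's strand, with motif matches in capitals. The Sst and Lhx6 stretches lie inside the gene spans given above. An annotated Sst exon overlaps the 250 bases before the Sst start used. Lhx6 had 3 start windows, and the stretch shown is from the first. The capitals mark TGACGTCA, the cAMP response element, in Sst and GGGCGG (or its reverse complement CCGCCC), the GC box, in the other 3. The stretches are chr16:23890873-23890902 (minus strand, positions -58 to -29) for Sst, chr2:36105479-36105608 (minus strand, -200 to -71) for Lhx6, chr6:114131111-114131240 (plus strand, -130 to -1) for Slc6a11 and chr5:22344706-22344835 (minus strand, -130 to -1) for Reln.
Sst: cctccttggcTGACGTCAgagagagagttt
Lhx6: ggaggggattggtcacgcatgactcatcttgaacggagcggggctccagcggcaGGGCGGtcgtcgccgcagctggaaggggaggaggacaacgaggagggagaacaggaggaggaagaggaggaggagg
Slc6a11: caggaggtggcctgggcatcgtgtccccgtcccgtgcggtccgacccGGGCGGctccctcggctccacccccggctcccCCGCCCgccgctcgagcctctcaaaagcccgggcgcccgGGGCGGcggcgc
Reln: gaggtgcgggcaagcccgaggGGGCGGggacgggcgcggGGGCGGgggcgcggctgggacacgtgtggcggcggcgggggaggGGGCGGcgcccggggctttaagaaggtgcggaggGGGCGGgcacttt

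The 9 genes had 12 RefSeq start windows of 300 bases (250 before and 50 after the start), searched on both strands beside 32851 windows of all genes. TGACGTCA was in 1 of the 12 windows, that of Sst, and in 1.79% of all windows. The GC box was in 5 of the 12 windows, of 4 members (Gad1, Slc6a11, Lhx6 and Reln), and in 35.7% of all windows. TATAAA, the TATA box, was in 2 of the 12 windows and 13.6% of all, and TAATTA, the core of many homeodomain sites, was in 0 of the 12 and 5.29% of all. The Reln window was 80.7% G and C and the Slc6a11 window 72.3%, where the median of all windows was 52.7%. A match describes these letters and is not evidence of binding.

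Gad1 and Gad2, the GABA synthesis genes, were neuronal transcripts in both genotypes. Gad1 had a lowest, median and highest value of 22.2, 33.5 and 48.0 CPM in P301S neurons, against 18.9, 25.3 and 47.8 CPM in non-Tg neurons. The ranges overlapped almost entirely, because non-Tg neuron library 5 (47.8 CPM) lay far above the other 7, the next of which was at 28.8 CPM. The fitted log2 difference was 0.30 (SE 0.20), and it did not pass (edgeR's quasi-likelihood test, adjusted p = 0.780).

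Gad2 had a lowest, median and highest value of 51.9, 67.0 and 99.8 CPM in P301S neurons, against 24.0, 50.3 and 61.1 CPM in non-Tg neurons. All 6 P301S neuron libraries were above the non-Tg mean and 4 of the 6 were above the highest non-Tg library, so the ranges overlapped in part. Gad2 averaged 72.3 ± 20.3 CPM in P301S neurons and 46.5 ± 13.4 CPM in non-Tg neurons (SD, n = 6 and 8). The log2 difference was 0.64 (SE 0.21), with an unadjusted p of 0.00632, and it did not pass after adjustment over the genes tested (edgeR, adjusted p = 0.439). Non-Tg neuron library 8 was the lowest of the 14, and without libraries 5 and 8 the difference was 0.59 (edgeR, adjusted p = 0.149). In bulk RNA, fewer cells of a type and less RNA per cell cannot be told apart, for Gad2 and for the other genes here.

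In astrocyte libraries both genes were low and uneven. Gad1 was at 4.0, 0.320, 2.16, 8.14 and 1.06 CPM in the 5 P301S astrocyte libraries, against a lowest, median and highest value of 1.89, 4.23 and 7.26 CPM in non-Tg astrocytes. These groups overlapped, and the log2 difference of -0.64 (SE 0.87) did not pass (edgeR, adjusted p = 0.787). Gad2 was at 11.2, 0, 0.359, 0 and 0.354 CPM in P301S astrocytes, against 0.865, 4.61 and 8.59 CPM (lowest, median and highest) in non-Tg astrocytes. P301S astrocyte library 1 alone was above the non-Tg range and the other 4 were below it. The sum of the 14 general neuron markers in that library was 859.7 CPM, within the 718 to 1393 CPM of its group. Gad2 held too few counts for the fit, and by an exact permutation test (2-sided, difference of mean CPM -2.21, n = 5 and 6) p was 0.403, where 0.00216 is the smallest p that this design allows.

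The 2 enzymes could be set against each other on the authors' length-scaled values (nRPKM, RPKM adjusted by size factors). Gad2 averaged 2.30 ± 0.653 nRPKM in P301S neurons and 1.52 ± 0.463 nRPKM in non-Tg neurons. Gad1 averaged 1.43 ± 0.385 and 1.19 ± 0.390 nRPKM in the same groups. The ratio of Gad2 to Gad1 had a median of 1.61 in P301S neurons and 1.27 in non-Tg neurons, with ranges of 1.08 to 2.28 and 0.735 to 1.97. The mean log2 ratio differed by 0.35, which an exact permutation test did not separate (2-sided, n = 6 and 8, p = 0.154, adjusted p = 0.277 over 9 such tests).

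Slc32a1, the vesicular GABA transporter gene, was detected in neurons at low depth. Its lowest, median and highest values were 0.443, 2.64 and 3.98 CPM in P301S neurons, against 0, 2.18 and 3.23 CPM in non-Tg neurons. The groups overlapped across most of their range, with 30 counts in all 6 P301S neuron libraries together and 38 in the 8 non-Tg ones. An exact permutation test gave p = 0.487 (2-sided, n = 6 and 8). Slc32a1 had no count in any of the 5 P301S astrocyte libraries, and 7 counts in all in the 6 non-Tg ones, 2 of which were at 0 (exact permutation test of the mean CPM, 2-sided, n = 5 and 6, p = 0.0606). Its level was therefore at least 10.7-fold higher in P301S neurons than in P301S astrocytes, taking 3 counts over the 5 astrocyte libraries as the floor. The exact permutation test between P301S neurons and astrocytes gave p = 0.00649 (2-sided, n = 6 and 5, adjusted p = 0.0584 over 9 tests), and between the non-Tg cells 0.0286 (n = 8 and 6, adjusted p = 0.129). Neither passed adjustment. Slc32a1 did not pass the default filter of the fit. With a filter at 1 CPM edgeR called it between neurons and astrocytes in both genotypes, and with no filter in P301S. It passed the filter at 1 CPM through neuron libraries, since its highest value in an astrocyte library was 1.04 CPM, from 2 counts. The calls with that filter therefore add no support.

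Slc6a11, which encodes the astrocytic GABA transporter GAT3, was the one member higher in astrocytes. It was at 153, 271, 239.9, 115 and 79.7 CPM in the 5 P301S astrocyte libraries, against a lowest, median and highest value of 161, 183 and 375 CPM in non-Tg astrocytes. Of the P301S libraries 3 were below the lowest non-Tg one, and 2 were inside the non-Tg range. The mean was 172 ± 81.5 CPM in P301S astrocytes and 217 ± 80.3 CPM in non-Tg astrocytes (SD, n = 5 and 6). The log2 difference of -0.36 (SE 0.32) did not pass (edgeR, adjusted p = 0.663), and its sign turned to 0.22 with a covariate for sex marker genes. In neuron libraries Slc6a11 had 1.71, 3.27 and 7.51 CPM in P301S and 0.555, 3.37 and 5.97 CPM in non-Tg (lowest, median and highest), which overlapped (exact permutation test, 2-sided, n = 6 and 8, p = 0.632).

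Lhx6, the transcription factor gene of interneurons from the medial ganglionic eminence, had the largest genotype difference of the 6 members tested in neurons. Its lowest, median and highest values were 2.86, 5.13 and 7.22 CPM in P301S neurons, against 0.714, 1.78 and 4.10 CPM in non-Tg neurons. All 6 P301S libraries were above the non-Tg mean and 5 of 6 were above the highest non-Tg library. That highest one, non-Tg neuron library 2 at 4.10 CPM, stood apart from the other 7, the next of which was at 2.17 CPM. Lhx6 averaged 5.40 ± 1.63 CPM in P301S neurons and 1.89 ± 1.02 CPM in non-Tg neurons (SD, n = 6 and 8), from 73 and 46 counts in all.

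The log2 difference of Lhx6 was 1.34 (SE 0.33), with an unadjusted p of 6.06e-04, and it did not pass over all genes (edgeR, adjusted p = 0.208). It passed with limma voom and sample quality weights, at 1.5 (adjusted p = 0.0322), and not with DESeq2, at 1.37 (adjusted p = 0.0989). Lhx6 reached the filter's level in 5 P301S libraries and 1 non-Tg library. The filter thus favoured a higher value in P301S, and the pass with voom adds no support. Over the 16 alternatives in which its counts passed the filter, the difference ran from 1.25 to 1.68 and the adjusted p from 0.0322 to 1. In the other 8 of 24, among them the fit without non-Tg neuron libraries 5 and 8, it was not tested. Those 2 libraries had 1.67 and 2.09 CPM, in the middle of the non-Tg range. With the level of 12 astrocyte markers as a covariate the difference was 1.31, and with striatal projection neuron markers it was 1.26. Lhx6 had no count in the 5 P301S astrocyte libraries, and 3 counts each in 2 of the 6 non-Tg astrocyte libraries (exact permutation test, 2-sided, n = 5 and 6, p = 0.455).

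Sst, the gene of the neuropeptide somatostatin, had a lowest, median and highest value of 7.98, 15.4 and 31.3 CPM in P301S neurons, against 6.09, 9.26 and 21.3 CPM in non-Tg neurons. The groups overlapped, and 2 of 6 P301S libraries were above the highest non-Tg library. The log2 difference was 0.57 (SE 0.32; edgeR, adjusted p = 0.711). In P301S astrocytes Sst was at 2.00, 0, 1.80, 0 and 0 CPM, against 0.577, 2.67 and 11.4 CPM (lowest, median and highest) in non-Tg astrocytes. Its mean there differed by -3.27 CPM without passing (exact permutation test, 2-sided, n = 5 and 6, p = 0.134, adjusted p = 0.277).

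Pvalb, the gene of the calcium buffer parvalbumin that marks fast-spiking interneurons, was at or under the floor everywhere. It had 2 counts in all 6 P301S neuron libraries together, 4 in the 8 non-Tg neuron libraries, 0 in the 5 P301S astrocyte libraries and 1 in the 6 non-Tg astrocyte libraries. No fold was computed. A floor of 3 counts over each neuron group stood at 0.225 CPM in P301S and 0.147 CPM in non-Tg neurons.

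Erbb4, which encodes a neuregulin receptor found on many interneurons, had a lowest, median and highest value of 66.2, 85.2 and 90.0 CPM in P301S neurons, against 40.5, 71.7 and 103 CPM in non-Tg neurons. The P301S values lay inside the non-Tg range, and the log2 difference was 0.23 (SE 0.17; edgeR, adjusted p = 0.789). In P301S astrocytes Erbb4 was at 29.7, 54.2, 28, 13.3 and 52.8 CPM, against 29.0, 33.1 and 79.0 CPM (lowest, median and highest) in non-Tg astrocytes. There the log2 difference of -0.20 (SE 0.46; edgeR, adjusted p = 0.894) changed sign to 0.14 without P301S astrocyte libraries 3 and 4, and to 0.10 without non-Tg astrocyte library 5.

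Reln, the gene of reelin, which interneurons secrete in the adult cortex and hippocampus, had a lowest, median and highest value of 21.0, 26.6 and 39.8 CPM in P301S neurons, against 17.9, 21.3 and 27.2 CPM in non-Tg neurons. Of the 6 P301S libraries 3 were above the highest non-Tg one, and the ranges overlapped. The log2 difference was 0.34 (SE 0.17), with an unadjusted p of 0.0550 (edgeR, adjusted p = 0.659). In P301S astrocytes Reln was at 13.2, 6.73, 2.51, 11.1 and 28.7 CPM, against 7.28, 14.3 and 48.5 CPM (lowest, median and highest) in non-Tg astrocytes, a log2 difference of -0.61 (SE 0.69; edgeR, adjusted p = 0.734). The groups overlapped, and non-Tg astrocyte library 5 at 48.5 CPM was far above the other 5.

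**Figure D1:**
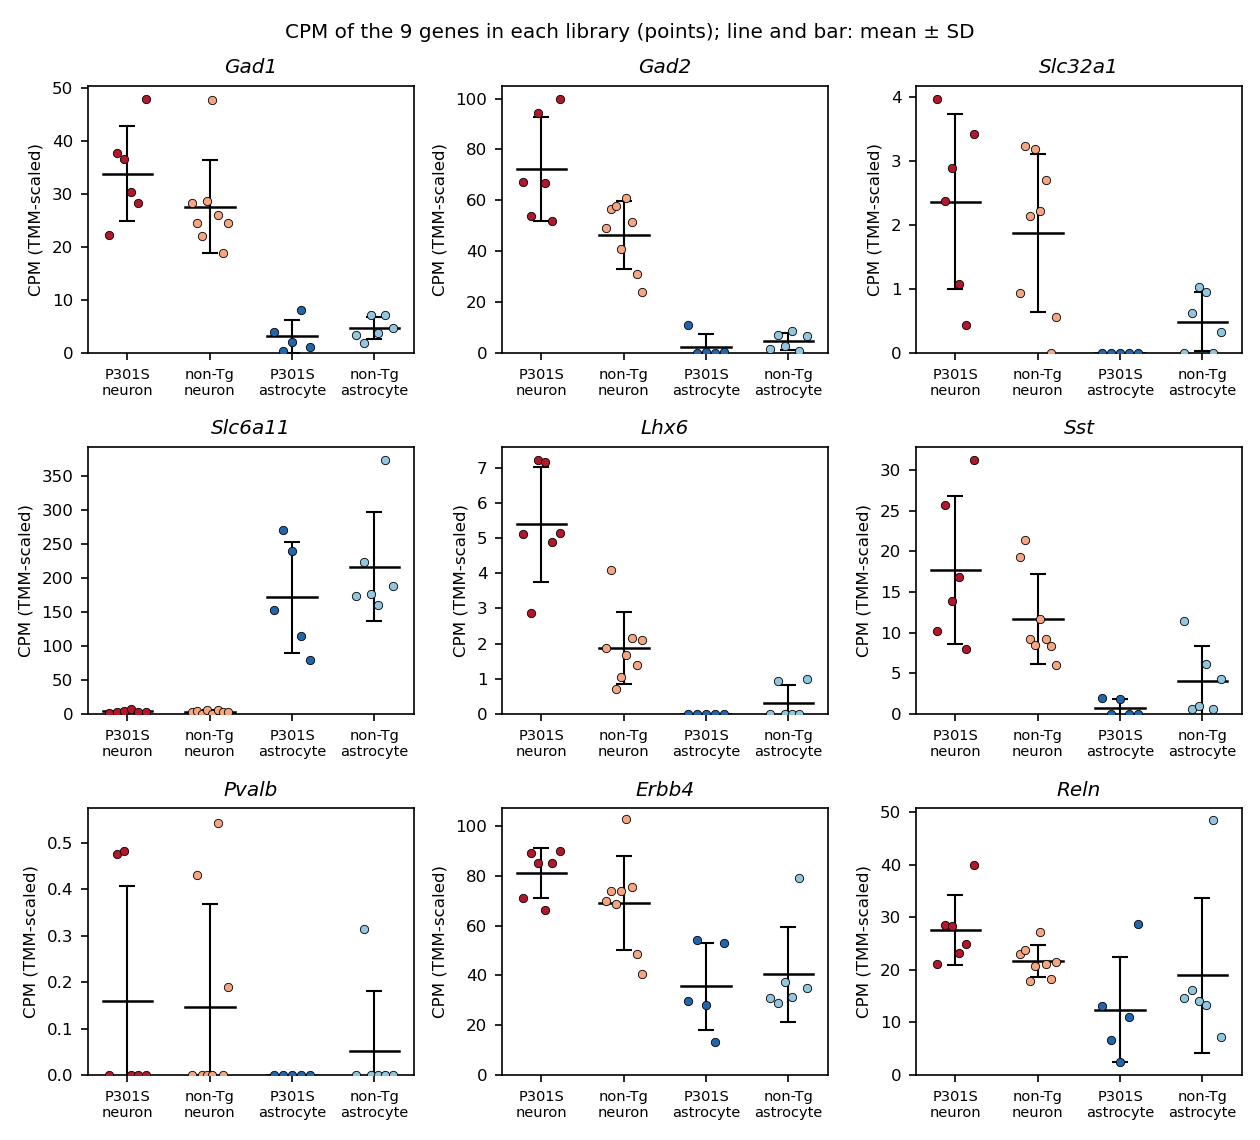
Each panel plots 1 gene in CPM (TMM-scaled, linear axis from 0) with a point per library, a line at the group mean and a bar of 1 SD, for P301S neurons (n = 6), non-Tg neurons (n = 8), P301S astrocytes (n = 5) and non-Tg astrocytes (n = 6). Lhx6 lies above the highest non-Tg neuron library (4.10 CPM) in 5 of 6 P301S neuron libraries, and Slc6a11 runs from 79.7 to 375 CPM in astrocytes against at most 7.51 CPM in neurons.

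Across the neuron comparison, 6 of the 9 members had enough counts to be tested and 0 of 6 were called at an adjusted p under 0.05, where 1 of 10951 genes (0.00913%) was called. That gene, named after its values were seen, was Ddx60, an interferon-induced helicase gene, at 2.61 (SE 0.38, adjusted p = 0.0112). By DESeq2 0 members were called, and by limma voom 1, Lhx6. At an unadjusted p under 0.05 there were 2 of 6 members, Gad2 and Lhx6, beside 7.73% of all genes tested, and both were higher in P301S, beside 3.05%. That count was 5 of 6 without non-Tg neuron library 5, and 1 of 5 without P301S neuron library 3 or 6 or non-Tg neuron library 8. It was 3 without P301S neuron library 1 or with voom, and 4 with the astrocyte covariate. The share of all genes at that level was not computed for these settings, so their counts cannot be read as particular to the members. The 6 log2 differences were above 0, with a median of 0.45, where 46.2% of all genes were above 0 and their median was -0.02. Lhx6 passed the filter through 5 P301S libraries and 1 non-Tg library, so its place among these was favoured by the filter. Without P301S neuron library 6, which also took Lhx6 out of the test, the median was 0.21, and Reln was at 0.21 there. The 3 members not tested were Slc6a11, Slc32a1 and Pvalb. No member had groups that did not overlap, and 0.210% of all genes did.

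In the astrocyte comparison 4 members were tested (Gad1, Slc6a11, Erbb4 and Reln) and 0 were called by edgeR, DESeq2 or limma voom, where edgeR called 66 of 12130 genes (0.544%). At an unadjusted p under 0.05 there were 0 of the 4, beside 13.4% of all genes. The 4 log2 differences were below 0, with a median of -0.48, where 43.3% of all genes were below 0 and their median was 0.13. No member tested had groups that did not overlap, and 2.12% of all genes did. The median was -0.11 without non-Tg astrocyte library 5 and 0.11 with the sex marker covariate. The part of the mitochondrial share and of the oligodendrocyte and neuron marker sums given above in these values was not tested, except that the median was -0.54 with the neuron markers as a covariate. The signs of Slc6a11, Erbb4 and Reln each turned under at least 1 alternative, and Gad1 kept its sign in 20 of 20.

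Whether the genotype difference itself differed between the cell types was tested as an interaction in a fit of all 25 libraries, as the effect in neurons minus that in astrocytes. Of the 7 members tested 0 were called, where 65 of 14197 genes (0.458%) were, and 2 had an unadjusted p under 0.05 beside 14.6% of all genes. Both entered this fit through neuron libraries: at the filter's level of 4.35 CPM, Lhx6 was in 0 astrocyte libraries and Sst in 2 non-Tg ones. They were Sst, with a difference of 2.80 (SE 0.98; edgeR, adjusted p = 0.158), and Lhx6 (edgeR, adjusted p = 0.0965), whose fitted size of 4.43 depends on the prior count because the P301S astrocyte libraries were at 0. For Gad2 the difference was 1.40 (SE 0.86; edgeR, adjusted p = 0.473). It rested on P301S astrocyte library 1, and without that library it was 4.86 and called (edgeR, adjusted p = 0.00233), where 544 of 14346 genes were called. P301S astrocyte libraries 2 to 5 held 0, 1, 0 and 1 counts of Gad2, so the size of 4.86 depends on the prior count too. Gad2 also entered through neuron libraries, with 1 P301S and 3 non-Tg astrocyte libraries at 4.35 CPM.

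Between cell types the members differed in direction and in the size of the difference. Gad1 was higher in neurons than in astrocytes by a log2 difference of 3.58 (SE 0.52) in P301S and 2.58 (SE 0.44) in non-Tg mice (edgeR, adjusted p = 7.36e-07 and 8.54e-06). Gad2 was higher by 4.78 (SE 0.72) in P301S and 3.38 (SE 0.61) in non-Tg (edgeR, adjusted p = 1.49e-06 and 2.16e-05). Its P301S value was 8.24 without P301S astrocyte library 1, a size that depends on the prior count, since libraries 2 to 5 held at most 1 count each. For both genes each neuron library was above the highest astrocyte library of its genotype.

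Slc6a11 was lower in neurons, with a log2 difference of -5.39 (SE 0.43) in P301S and -5.95 (SE 0.38) in non-Tg (edgeR, adjusted p = 3.50e-12 and 1.60e-14). Each neuron library was below the lowest astrocyte library in both genotypes.

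Lhx6 was at least 24.4-fold higher in P301S neurons than in P301S astrocytes, taking 3 counts over the 5 astrocyte libraries, all at 0, as the floor (edgeR, adjusted p = 3.35e-06). In non-Tg mice its log2 difference was 2.39 (SE 0.71; edgeR, adjusted p = 0.00618), and 7 of 8 neuron libraries were above the highest astrocyte library. Sst was higher in neurons by 4.37 (SE 0.83) in P301S (edgeR, adjusted p = 4.21e-05), where the groups did not overlap. In non-Tg mice Sst was higher by 1.57 (SE 0.63; edgeR, adjusted p = 0.0391), and there 3 of 8 neuron libraries were above the highest astrocyte library. That call for Sst was lost in 12 of 33 alternatives, each leaving out 1 library, with an adjusted p of up to 0.103. These were P301S neurons 1, 2 and 5, non-Tg neurons 1, 2, 3, 4 and 6 and non-Tg astrocytes 2, 3, 5 and 6.

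Erbb4 was higher in neurons by 1.22 (SE 0.33; edgeR, adjusted p = 0.00210) in P301S and by 0.81 (SE 0.29; edgeR, adjusted p = 0.0208) in non-Tg mice. The non-Tg call was lost without any 1 of non-Tg astrocyte libraries 1, 2, 3, 4 or 6, with an adjusted p of at most 0.0623. Reln had the smallest difference of the 7 and was higher in P301S neurons by 1.19 (SE 0.46; edgeR, adjusted p = 0.0289). That call was lost in 7 of 33 alternatives, among them leaving out P301S neuron library 2 or 6 or P301S astrocyte library 2 or 3, and it was 0.86 without P301S astrocyte libraries 3 and 4 (adjusted p = 0.109). In non-Tg mice its difference of 0.23 (SE 0.40) did not pass (edgeR, adjusted p = 0.683).

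As a description, 6 of the 7 tested members were higher and 1 lower in P301S neurons than in P301S astrocytes, where 24.1% of 14197 genes were higher and 27.8% lower. In non-Tg mice 5 were higher and 1 lower, where 22.7% of genes were higher and 23.9% lower. These counts support nothing further, since Gad1, Gad2, Lhx6 and Sst entered the fit through neuron libraries and Slc6a11 through astrocyte libraries, where each is high. Erbb4 and Reln had enough counts in both cell types. In P301S 5 of 7 members had neuron libraries wholly above the astrocyte libraries (17.2% of all genes) and 1 wholly below (12.6%). In non-Tg mice these were 2 of 7 (16.1%) and 1 of 7 (15.2%).

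**Figure D2:**
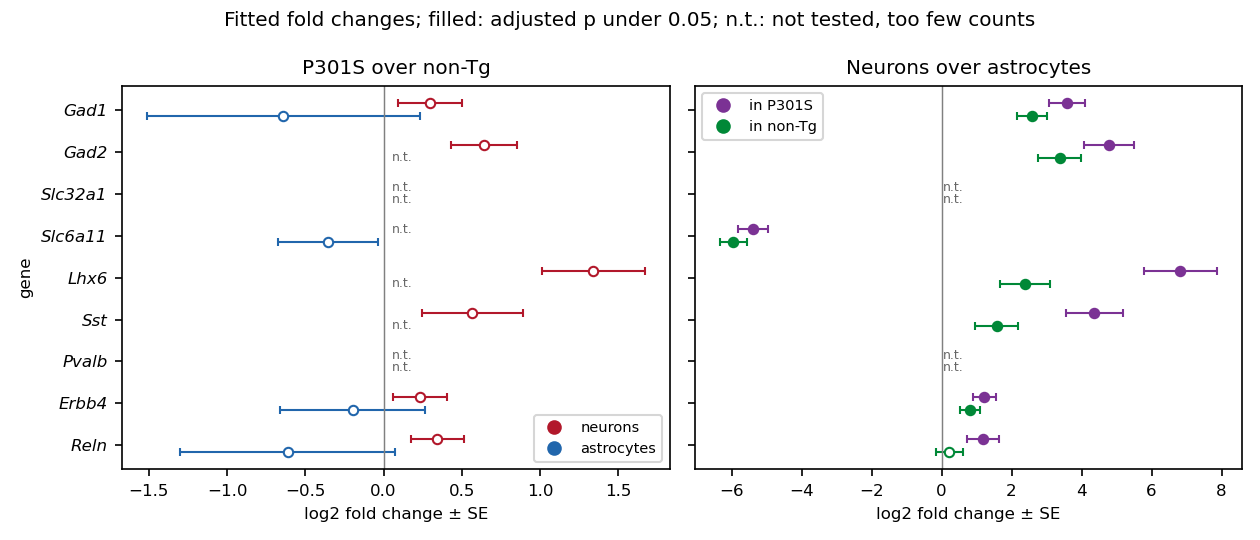
The left panel plots the log2 fold change of P301S over non-Tg with its SE for each gene in neurons and astrocytes, and the right panel that of neurons over astrocytes in P301S and non-Tg. Filled points passed an adjusted p under 0.05, n.t. marks too few counts, and the value of Lhx6 in P301S depends on the prior count because its astrocyte libraries were at 0. No genotype difference passed, and Slc6a11 is the one gene left of 0 on the right, at -5.39 and -5.95.

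Levels of different genes were compared on the authors' nRPKM, which are scaled by gene length. In P301S neurons Sst was highest at 5.27 ± 2.75 nRPKM (SD, n = 6), followed by Gad2 at 2.30 ± 0.653, Gad1 at 1.43 ± 0.385, Erbb4 at 0.878 ± 0.111 and Reln at 0.415 ± 0.103. Neighbours in this order overlapped in their ranges as far as Erbb4. Erbb4 lay wholly above Reln, and Reln wholly above Lhx6 at 0.212 ± 0.0627. Slc6a11 and Slc32a1, at 0.167 ± 0.0862 and 0.151 ± 0.0883 nRPKM, could not be told from Lhx6, and Pvalb was at 0.0244 ± 0.0379.

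In non-Tg neurons the first 5 places were the same, from Sst at 3.59 ± 1.73 nRPKM (SD, n = 8) to Reln at 0.332 ± 0.0493. Lhx6 was eighth there, at 0.0757 ± 0.0412 nRPKM, after Slc6a11 and Slc32a1, and the ranges of these 3 overlapped. In astrocytes Slc6a11 was far the highest, at 6.87 ± 3.23 nRPKM in P301S (n = 5) and 8.71 ± 3.29 nRPKM in non-Tg (n = 6), and lay wholly above the next gene in both. The next were Erbb4 at 0.350 ± 0.169 nRPKM in P301S astrocytes and Sst at 1.08 ± 1.14 nRPKM in non-Tg astrocytes. The neighbours after Slc6a11 overlapped in both groups.

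**Figure D3:**
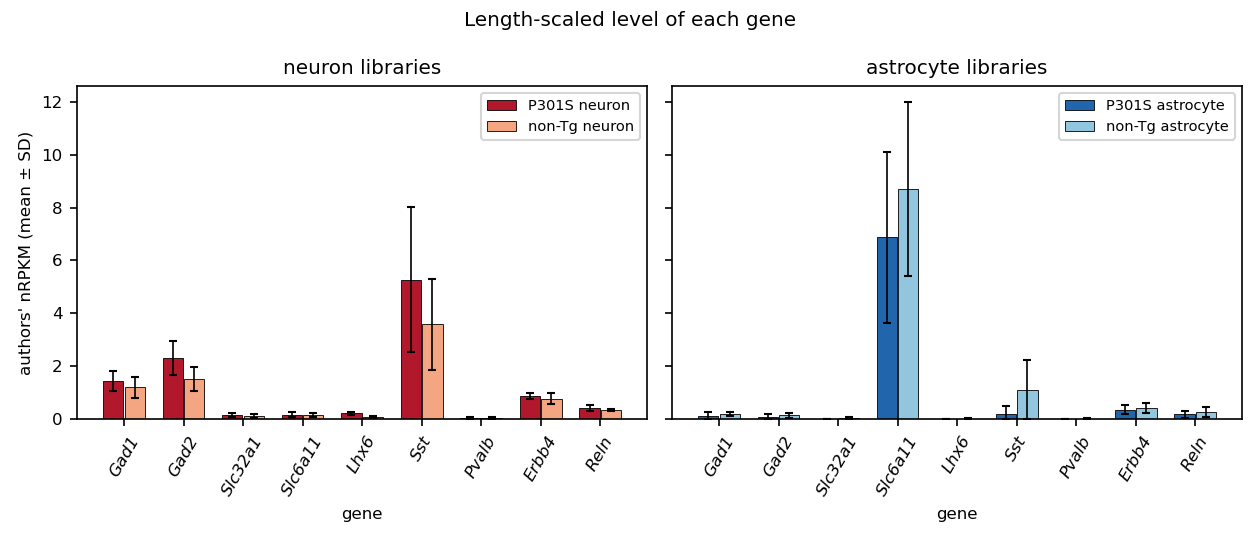
Bars give the mean nRPKM (the authors' length-scaled value, linear axis from 0) of each gene and whiskers 1 SD, for P301S and non-Tg neurons on the left and P301S and non-Tg astrocytes on the right. Sst is the highest bar in neurons, at 5.27 in P301S and 3.59 in non-Tg, and Slc6a11 in astrocytes, at 6.87 and 8.71.

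Related genes were read from lists of the same biology. Of 15 other interneuron transcription factor genes 7 were tested in neurons, 0 were called, and 2 had an unadjusted p under 0.05 (edgeR), beside 7.73% of all genes. Npas1, a basic helix-loop-helix gene of interneurons, was at 1.01 (SE 0.44; edgeR, adjusted p = 0.628). Dlx1, a homeobox gene of GABAergic neurons, was at 0.48 (SE 0.24) and Sox6, which acts after Lhx6, at 0.59 (SE 0.31). The list's median was 0.48 with 6 of 7 above 0, where the median of all genes was -0.02. Sox6 is also expressed by astrocytes: it averaged 287 ± 69.2 CPM in P301S astrocytes against 9.52 ± 3.86 CPM in P301S neurons.

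Of 19 other interneuron subtype markers 8 were tested, 0 were called, 2 had an unadjusted p under 0.05 beside 7.73% of all genes, and the median was 0.07. Kcnc1, a potassium channel gene of fast-spiking cells, and Nxph1, a neurexin ligand gene, were both at 0.51 (SE 0.22; edgeR, adjusted p = 0.607 and 0.628). The nitric oxide synthase gene Nos1 was at -0.25 (SE 0.18) and the cannabinoid receptor gene Cnr1 at 0.09 (SE 0.16). Of 13 other genes of GABA and glutamine metabolism and transport 9 were tested and 0 called, with 2 at an unadjusted p under 0.05 and a median of 0.18. The glutamine synthetase gene Glul was at 0.57 (SE 0.22; edgeR, adjusted p = 0.540). Abat, the gene of GABA transaminase, was at 0.38 (SE 0.23) and was not among those 2.

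Partners of Erbb4 and Reln in signalling lay near or below 0 in neurons. There 5 of 9 ErbB and neuregulin genes were tested, 0 were called at either level, and the median was -0.14, with Nrg4, a neuregulin gene, at -0.42 (SE 0.22) and Nrg1 at -0.22 (SE 0.21). All 6 genes of the reelin pathway were tested, 0 were called at either level, and the median was 0.01, with the receptor genes Lrp8 at 0.20 (SE 0.13) and Vldlr at -0.14 (SE 0.15) and the adaptor gene Dab1 at 0.02 (SE 0.14). In astrocytes 0 genes of these 5 lists were called by edgeR. At an unadjusted p under 0.05 there were 3 of 7 ErbB genes, 1 of 3 subtype markers and none of the 10, 6 and 6 genes tested in the other 3 lists, where 13.4% of all genes were. Hbegf, a ligand gene of the EGF receptor, was at -2.99 (SE 0.97, adjusted p = 0.168), Nrg2 at 1.47 (SE 0.51, adjusted p = 0.192), Nrg4 at 1.40 (SE 0.55, adjusted p = 0.263) and Kcnc1 at -1.89 (SE 0.87, adjusted p = 0.350). For Kcnc1 the genotype effect in neurons minus that in astrocytes was 2.40 (SE 0.57), 1 of the 65 genes called for that difference (edgeR, adjusted p = 0.0480), and other settings were not run for it. It averaged 83.2 ± 13.8 CPM in P301S neurons and 57.8 ± 23.3 CPM in non-Tg neurons, and 1.47 ± 1.32 CPM in P301S astrocytes and 5.60 ± 2.75 CPM in non-Tg astrocytes. Of the 9 subtype markers tested for the same difference, 3 were higher and 1 lower at an unadjusted p under 0.05, beside 6.87% and 7.77% of all genes. The lower one was Syt2, at -3.70 (SE 1.06; edgeR, adjusted p = 0.0838), and Kcnc2 was at -0.24 (SE 0.69).

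Sums of markers of other cells are given beside these values. Of all genes tested in neurons 3.05% were higher and 4.68% lower in P301S at an unadjusted p under 0.05. For 8 dentate granule markers the CPM summed to 370 to 544 in P301S neurons and 543 to 824 in non-Tg neurons, with a median log2 difference of -0.43, 0 of 8 called and 4 lower at an unadjusted p under 0.05. For 12 astrocyte markers the sum was 482 to 735 in P301S and 377 to 689 in non-Tg neurons, with 0 of 9 tested called, 3 higher at an unadjusted p under 0.05, a median of 0.57 and none of the 12 at 0. For 9 microglial markers it was 81.8 to 397 in P301S and 30.6 to 180.0 in non-Tg neurons, with 0 of 7 tested called, 1 higher at an unadjusted p under 0.05, a median of 0.77 and none at 0. For 13 markers of striatal projection neurons, which are GABAergic too, it was 246 to 385 in P301S and 263 to 371 in non-Tg neurons, with 0 of 5 tested called at either level, a median of 0.10 and none at 0. Gad2 was at 0.65 with the astrocyte markers as a covariate and at 0.49 with the striatal ones. The part of the granule and microglial markers in the members' values was not tested. In astrocyte libraries the striatal sum was 61.3 to 616 CPM in P301S and 74.5 to 202 CPM in non-Tg, and its part there was not tested either.

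**Figure D4:**
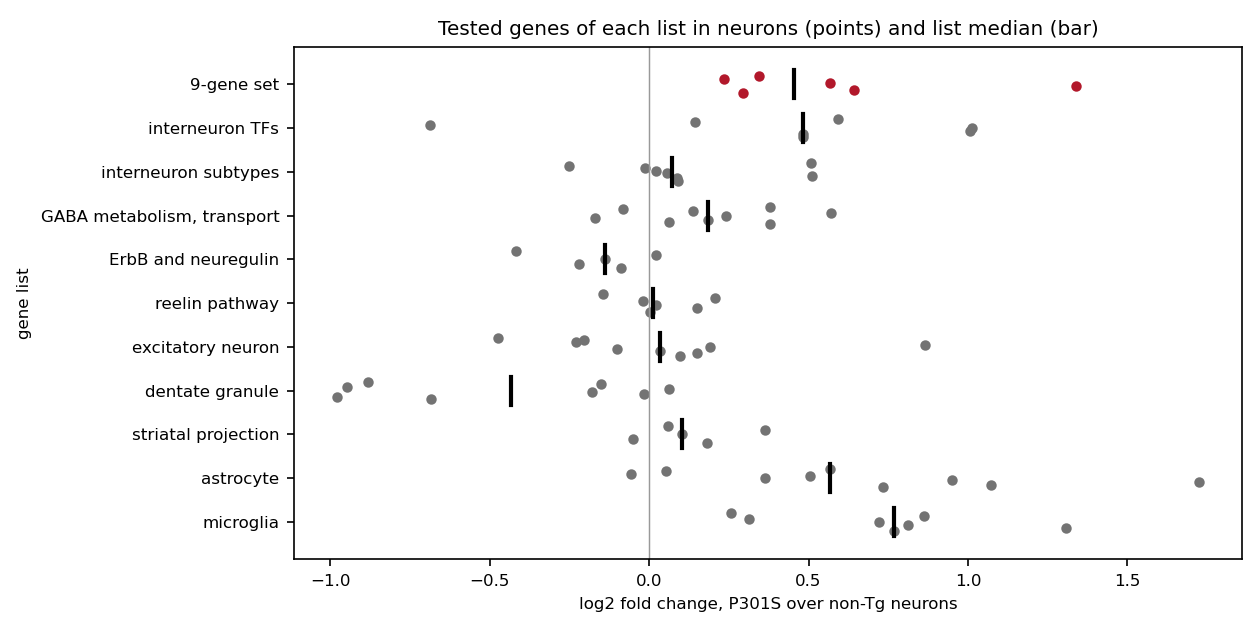
Points are the log2 fold changes (P301S over non-Tg neurons) of the tested genes of each list, and bars the list medians. The 6 tested members of the 9-gene set lie above 0 (median 0.45), the interneuron transcription factors have a median of 0.48, and the dentate granule markers one of -0.43. No gene plotted was called.

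Between the cell types, 9 of 19 interneuron subtype markers were tested. Of these, 7 were called higher in neurons in P301S and 8 in non-Tg mice, and 0 lower (edgeR). Of all 14197 genes 24.1% were called higher and 27.8% lower in P301S, and 22.7% and 23.9% in non-Tg. Nxph1, at 19.0 CPM in P301S neurons and 0.186 CPM in P301S astrocytes, passed the filter through neuron libraries. List counts between cell types are therefore given as descriptions. Kcnc1 was higher by 5.77 (SE 0.50) in P301S and 3.38 (SE 0.38) in non-Tg, and Kcnc2 by 4.41 (SE 0.56) and 4.65 (SE 0.52). Of 11 tested genes of GABA and glutamine metabolism 8 were lower in neurons in each genotype, among them Glul at -4.78 (SE 0.30) in P301S and -5.51 (SE 0.27) in non-Tg.

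Of 9 tested transcription factor genes 3 were higher and 2 lower in P301S neurons, and 2 higher and 2 lower in non-Tg neurons. Dlx6 and Dlx1, GABAergic homeobox genes, were among the higher ones (non-Tg 4.23, SE 0.74, and 3.03, SE 0.64), and Sox6 was lower (P301S -4.84, SE 0.32; non-Tg -5.38, SE 0.29). Of 7 tested ErbB genes 1 was higher and 4 lower in P301S, and 2 higher and 3 lower in non-Tg. Nrg3, a ligand gene of Erbb4, was higher in neurons at 3.87 (SE 0.51) in P301S and 5.70 (SE 0.53) in non-Tg, and the receptor gene Egfr was lower at -4.0 (SE 0.33) and -4.41 (SE 0.29). Of 6 reelin pathway genes Vldlr was higher at 1.62 (SE 0.47) in P301S and 1.25 (SE 0.41) in non-Tg, and Dab1 was lower at -1.40 (SE 0.21) and -0.92 (SE 0.18).

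The 6 members measurable in neurons varied together to different degrees. Correlations were computed over the 14 neuron libraries on log2 CPM after subtracting each group's mean, for 15 pairs, with p-values from 100000 permutations. Gad1 and Reln were closest, with Pearson's r = 0.87 (permutation p = 7.00e-05, adjusted p = 0.00105) and Spearman's rho = 0.81 (permutation p = 0.00129, adjusted p = 0.0169). The r was 0.81 without the 2 libraries farthest from the median of Gad1, 0.95 within the 6 P301S libraries and 0.85 within the 8 non-Tg libraries. Libraries with much Gad1, such as P301S neuron 6 and non-Tg neuron 5, were also the highest of their group in Reln.

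Gad1 and Gad2 were less close, with r = 0.48 (permutation p = 0.0973, adjusted p = 0.175), rho = 0.50 (permutation p = 0.0844, adjusted p = 0.151) and r = 0.21 without the 2 farthest libraries. Gad2 and Erbb4 had r = 0.72 (permutation p = 0.00716, adjusted p = 0.0499) and rho = 0.60 (permutation p = 0.0341, adjusted p = 0.0732), and the relation rested on the 2 farthest libraries, with r = 0.37 without them. Gad1 and Erbb4 had r = 0.68 (permutation p = 0.00999, adjusted p = 0.0499) and rho = 0.75 (permutation p = 0.00225, adjusted p = 0.0169), with r = 0.49 without the 2 farthest. The highest r of Lhx6 with any of the other 5 was 0.21, with Gad2, and Sst had its highest with Reln, r = 0.65 (permutation p = 0.0196, adjusted p = 0.0665; rho = 0.73, permutation p = 0.00656, adjusted p = 0.0328; r = 0.47 without the 2 farthest). The points of a pair share a library and its depth.

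**Figure D5:**
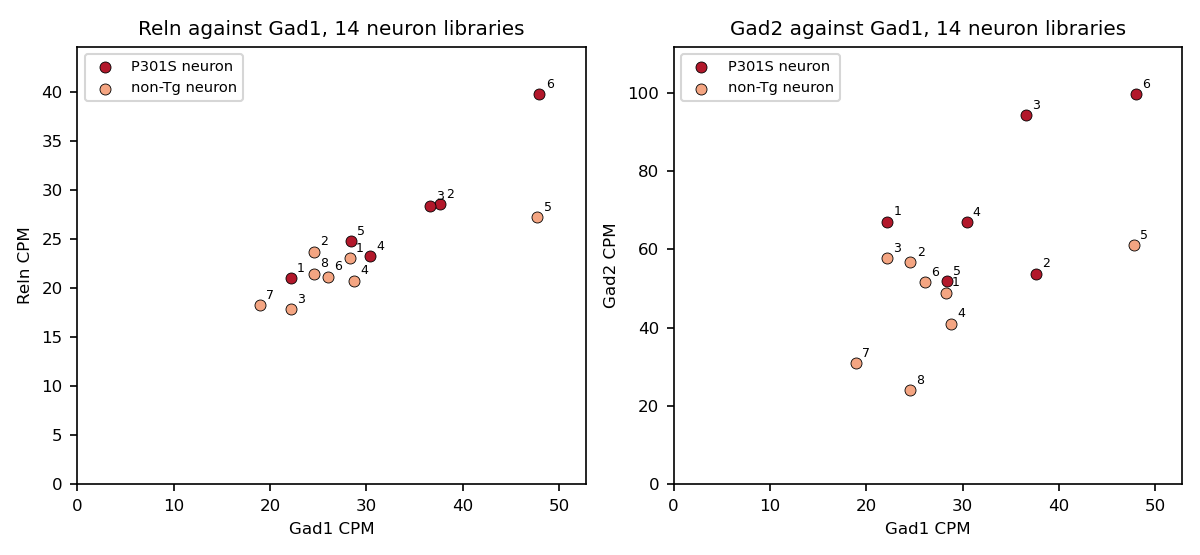
Each point is 1 of the 14 neuron libraries, numbered within its group, with Gad1 CPM on the x axis and Reln CPM (left) or Gad2 CPM (right) on the y axis, all linear from 0. Reln follows Gad1 in both genotypes (r = 0.87 after subtracting group means), and Gad2 does so less closely (r = 0.48).

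Genes most like each member were found by the same measure among 7756 genes with a mean of at least 10 CPM in neurons. For Gad1 the closest were Reln (r = 0.87), Ttl (0.87), Exph5 (0.86), Stxbp3 (0.84) and Ube2k (0.83). For Gad2 they were Nova1 (0.86), Tnfrsf21 (0.86), Kpnb1 (0.84), Prokr2 (0.84) and an ID without a symbol (0.83). Gad2 was thus not among the 5 genes closest to Gad1, nor Gad1 among those of Gad2.

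For Lhx6 the closest were Tubb4a (r = 0.84), Dhtkd1 (0.78), Slc2a3 (0.78), Nrsn2 (0.77) and Cdh13 (0.77), and for Sst they were Tafa1 (0.82), Rab9b (0.82), Epha5 (0.79), Degs1 (0.78) and Fam171a1 (0.78). For Erbb4 they were Phf6 (0.92), Cpne3 (0.91), Klhl9 (0.90), Ube2k (0.90) and Tmx1 (0.89). For Reln they were Gad1 (0.87), an ID without a symbol (0.84), Igf1r (0.83), Pcgf3 (0.80) and Exph5 (0.80). Ube2k was thus in the lists of Gad1 and Erbb4, and Exph5 in those of Gad1 and Reln. Over the 11 astrocyte libraries and 8631 genes, Slc6a11 was closest to A930017M01Rik (0.95), Plbd2 (0.93), an ID without a symbol (0.93), Zfyve26 (0.93) and Med20 (0.93). These are ranks over 14 or 11 libraries, given as descriptions.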

How the data were processed

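Neurons and astrocytes sorted from P301S and non-Tg mouse brains gave 25 RNA-seq libraries. The deposited tables hold, per the file headers, a raw count of reads uniquely aligning to each gene model and size-factor-adjusted RPKM (nRPKM) computed by the authors. GSNAP and GRCm38 are named in the submitters' processing notes; no version, gene model or strand setting is given in the sources used here, so antisense reads cannot be separated. The nRPKM equalled the count times 1 factor per library and 1 per gene, to a largest log deviation of 4.35e-14. Of 36528 IDs, 31049 matched RefSeq symbols of GRCm38.p6, and the other 5479, with 3.30% of counts, stayed in every test. Replicates were numbered in accession order, and no 2 libraries held identical values.

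Counts were tested with the quasi-likelihood test of edgeR 4.0.16 in R 4.3.3 (TMM scaling, default filterByExpr, robust fit), with Benjamini-Hochberg adjustment over all genes tested and calls at an adjusted p under 0.05. Genotype was fitted within each cell type. Neurons against astrocytes and the interaction came from 1 fit of 25 libraries, which treats neuron and astrocyte libraries as independent, since the labels do not tie them to animals. Members failing the filter were compared by exact permutation tests, chosen after seeing the data and adjusted over 9. Alternatives were RLE scaling, DESeq2 1.42.0, limma 3.58.1 voom, other filters, marker covariates, other sets of libraries and leaving out each library. Promoters came from RefSeq. The fits were tested on simulated data.

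The genes named are the 9 members, up to 4 genes with the smallest p of each list, and the 5 genes most like each member. Gfap, Map2 and Eno2 were named for the sort with their values known. C1ql3, Stxbp6, Prox1 and Calb1 were named for the granule marker sum, also with their values known. Members and lists were chosen with earlier results of these data known. Some genes of these lists are not reported here by name.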

Additional observations from a re-analysis of the deposited data

Results flagged for a closer look

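In 6 of the 28 groups of values checked, the highest library stood apart from the others by more than Dixon's 95% critical value for the gap to its neighbour. Chance gives about 1 in 20 for normally distributed values. The values here were CPM on a linear scale, some from few counts, so that rate need not hold and 6 of 28 is not read as an excess. Non-Tg astrocyte library 5 stood apart for 3 members at once: Slc6a11 at 375 CPM (next 225), Erbb4 at 79.0 CPM (next 37.3) and Reln at 48.5 CPM (next 16.1). Without it the log2 difference of Erbb4 between P301S and non-Tg astrocytes was 0.10 in place of -0.20. P301S astrocyte library 1 held 11.2 CPM of Gad2, and the next library of its group held 0.359 CPM. In non-Tg neurons, library 5 held 47.8 CPM of Gad1 (next 28.8) and library 2 held 4.10 CPM of Lhx6 (next 2.17). The part of these libraries in other results was not tested beyond leaving each out in turn.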

How the results depend on the processing

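No paired analysis was possible because the labels give no replicate numbers. Of 901 recomputed member values, 869 kept their direction and side of the threshold, 24 lost a call, 2 gained one and 6 changed sign. The 6 were in astrocytes: with the sex marker covariate Slc6a11 was at 0.22, Erbb4 at 0.68 and Reln at 0.0040, and Erbb4 was at 0.14 without P301S astrocytes 3 and 4, 0.10 without non-Tg astrocyte 5 and 0.01 without P301S astrocyte 4 (range leaving out 1 library -0.39 to 0.10). The 2 calls gained were Lhx6 in neurons with voom (1 member called) and Gad2 in the interaction without P301S astrocyte 1 (leaving out libraries in turn, 0 to 1 members called). Slc32a1, not tested with the default filter, was called between cell types with a filter at 1 CPM in both genotypes, which it passed through neuron libraries, and with none in P301S. The cause of these changes was not tested. Counts of all genes called moved more. In neurons (main count 1) they were 49 with DESeq2, 41 with voom, 17 without a filter, 10 with a filter at 1 CPM, 38 without non-Tg neurons 5 and 8, 0 with the astrocyte covariate, 5 with the striatal covariate and 0 to 23 leaving out 1 library. In astrocytes (main count 66) they were 440 with DESeq2, 124 with voom, 561 without a filter, 42 without P301S astrocytes 3 and 4, 1620 in 1 fit of all libraries, 15 with the sex covariate and 27 to 136 leaving out 1 library. For the interaction (main count 65) they were 425 with DESeq2, 12 with voom, 38 with a filter at 1 CPM, 11 without non-Tg neurons 5 and 8, 266 without P301S astrocytes 3 and 4, and 9 to 544 leaving out 1 library. The permutation tests gave the same calls on nRPKM. Depth limits Slc32a1, Lhx6 and Pvalb, which had at most 8, 20 and 1 counts in a P301S neuron library.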
